A study of Mus musculus with 4 samples.

Results

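The sequences described here are MILI-bound small RNAs that begin in the 5′ untranslated region (5′ UTR) of a mouse messenger RNA, the stretch between the transcript's first base and the start codon. They were chosen by exact sense match to the transcripts of a single protein-coding gene of GENCODE M21, with their first base upstream of the start codon on the transcript that has the gene's longest coding sequence. By this rule 74332 sequences were members, at 50182 distinct 5′ ends in 8236 genes. They made up 3.64% (3.61–3.66%) of the 2042982 sequences placed on such a transcript, and the whole list held 4906138 sequences. The mice were C57BL/6, 14 dpp (days post partum), and MILI was pulled down from testis lysate of Tdrd9+/- mice (2 libraries) and Tdrd9-/- mice (2 libraries), after which a gel slice near 28 to 30 nt was taken. What share of these tissues' cells carried MILI, and whether animals were pooled, is not given in the labels. The deposited table lists each distinct sequence once with its mm9 position, pooled over both genotypes, with no read counts and no library column. The depth of each library is therefore unknown, no replicate error can be had, and Tdrd9+/- and Tdrd9-/- mice were not compared.

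MILI (PIWIL2) is a PIWI protein of male germ cells that carries piRNAs, small RNAs longer than microRNAs that guide the silencing of transposons. Primary piRNAs are cut from long single-stranded precursors, among them messenger RNAs, and begin mostly with uridine. Secondary piRNAs arise when a PIWI protein slices a target opposite the tenth base of its guide, so that partners overlap by their first 10 bases and the new piRNA carries adenosine at position 10. The 5′ UTR is the part of a messenger that the small ribosomal subunit scans on its way to the start codon, and in mammals it is rich in guanosine and cytidine.

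The members with the most sequences at 1 end show what the list holds: a fixed first base and ragged 3′ ends. The fullest end lay in Fth1, the gene of the ferritin heavy chain that stores iron, 123 nt upstream of the start codon on the plus strand of chromosome 19. It carried 10 sequences, of which the shortest, a middle one and the longest within 30 nt are given with the first base in capitals. The list writes T for U. They occupy chr19:10057237-10057257, chr19:10057237-10057263 and chr19:10057237-10057266 (mm9).
Fth1, 21 nt: Tgcttgaacggaacccggtgc
Fth1, 27 nt: Tgcttgaacggaacccggtgctcgacc
Fth1, 30 nt: Tgcttgaacggaacccggtgctcgacccct

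Ferritin messengers carry an iron-responsive element in the 5′ UTR, a hairpin with the loop letters CAGUGN. In the GENCODE M21 transcript these letters, in capitals, started 3 bases before the fullest Fth1 end, so that the listed sequences began at the U within them.
Fth1 transcript: CAGTGCttgaacggaacccggtgctcgacc
The letters CAGUG (sense strand only) occurred in 24.6% of all 5′ UTRs, so a match alone marks no hairpin. An end began at the U of 154 of 6476 such possible starts, or 2.38%, which was below the 3.11% for uridines of 5′ UTRs in general.

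The other ends among the 5 fullest carried 9 sequences each and also began with U. Exo5 encodes a single-strand DNA exonuclease, Gas2l1 a linker of the cytoskeleton, Hist1h1t the testis-specific linker histone and Slc25a31 the germ cell ADP/ATP carrier of mitochondria. Their longest sequences within 30 nt are given, at chr4:120597328-120597357 (minus strand), chr11:4964898-4964927 (minus), chr13:23787730-23787759 (plus) and chr3:40512904-40512933 (plus).
Exo5: Tgggaacctggagagcagaacttaccgcct
Gas2l1: Tcatctgtagaatggagacgcggtcgccgc
Hist1h1t: Tgaccatgtcggaaacggctcctgcggcct
Slc25a31: Tctgtccaacatgtcgaacgaatcctccaa
These ends lay 272, 108, 5 and 10 nt upstream of their start codons, so the Hist1h1t and Slc25a31 sequences run through the start codon into the coding sequence.

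Members that hold a start codon are a class of their own. Of the members, 60177 (81.0%) ended before the start codon, 14155 (19.04%) ran into or past it and 13454 (18.1%) held all of it. From the germ cell genes among the lists used here, 3 such sequences are shown with the start codon in capitals: Lin28a, an RNA-binding protein of early germ cells (chr4:133574640-133574669, minus), Henmt1, the methyltransferase that protects piRNA 3′ ends (chr3:108744294-108744321, plus), and the Tudor protein gene Tdrkh (chr3:94226726-94226754, plus).
Lin28a: tcagcagacgaccATGggctcggtgtccaa
Henmt1: tagaagccggaaacaaaATGgaaatggc
Tdrkh: tgttaagtcagagtacaacagaaaATGtc

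5′ UTRs gave fewer MILI-bound sequences than the other regions of messengers. They held 7.15% of the nucleotides but 3.64% of the sequences, against 52.5% and 45.1% for the coding sequence and 40.4% and 51.2% for the 3′ UTR. Density was counted as distinct 5′ ends per 100 possible starts, a possible start being a base at which a run of 27 nt lies within a single exon. It was 1.08 (1.08–1.09) in the 5′ UTR, 1.97 in the coding sequence and 2.35 in the 3′ UTR. Intervals here and below are exact Clopper-Pearson 95% intervals over distinct sequences or ends and cover counting error only. The 5′ UTR was thus at 0.550 times the coding sequence and 0.463 times the 3′ UTR. With each base's use compared at the same base content, the factors were 0.577 and 0.568, so the deficit was of like size on both sides of the message. It was seen on every autosome: the 5′ UTR density ran from 0.877 to 1.42 with a mean of 1.13 (SD 0.165, n = 19 autosomes) and was below both other regions on 19 of 19.

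The members had the length of the other messenger piRNAs, within a small margin. Their mean length was 26.97 nt (SD 1.34 nt over sequences) with a mode of 27 nt, and 76.2% were of 26 to 28 nt. The mean was 27.1 nt in the coding sequence and in the 3′ UTR, and the 5′ UTR mean was the lowest of the regions on 19 of 19 autosomes, by less than 1 nt. The 25-nt class showed the shift, with 9.17% of members against 6.39% of coding and 7.09% of 3′ UTR sequences. The share that began with U was lowest at 25 nt (61.9%) and stood higher in longer and shorter classes, at 79.2% of the 1890 members of 30 nt and at 69.1% of the 262 members of 23 nt. Ends of the 5′ UTR carried 1.48 sequences each, as in the coding sequence (1.48) and fewer than in the 3′ UTR (1.66), and 70.4% carried a single one.

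First bases were set against the bases that the same 5′ UTRs offer. U was the first base of 66.4% (66.0–66.7%) of members, whereas 19.9% of the possible starts were U, a factor of 3.34 (3.24 when each gene's base content is weighted by its sequences). The other bases were all below their supply: A at 13.2% against 19.03%, C at 9.79% against 29.8% and G at 10.6% against 31.3%. Counted over distinct ends in place of sequences, U was first in 60.3% (59.8–60.7%). Raw shares and shares over supply ranked the regions differently. By raw share, U was more frequent in the 3′ UTR (72.5%) than in the 5′ UTR or the coding sequence (64.7%). Against supply, the factor was highest in the 5′ UTR. Its mean over autosomes was 3.36 (SD 0.0983, n = 19), against 2.98 (SD 0.0532) for the coding sequence and 2.49 (SD 0.0565) for the 3′ UTR, and it was higher than both on 19 of 19. The raw share exceeded that of the coding sequence on 17 of 19 autosomes and that of the 3′ UTR on 0 of 19.

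The same contrast was seen from the side of the possible starts. In the 5′ UTR 3.11% (3.07–3.14%) of uridines held an end, against 0.785% of adenosines, 0.464% of guanosines and 0.446% of cytidines. Uridine was used 5.72 times as often as the other bases together in the 5′ UTR, 4.89 times in the coding sequence and 4.65 times in the 3′ UTR. Each base of the 5′ UTR was used less often than the same base elsewhere in the message, and uridine at 3.11% stood against 5.14% in the coding sequence and 5.23% in the 3′ UTR. On single autosomes the use of uridine in the 5′ UTR ran from 2.33% to 4.39%, below both other regions on 19 of 19.

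**Figure D1:**
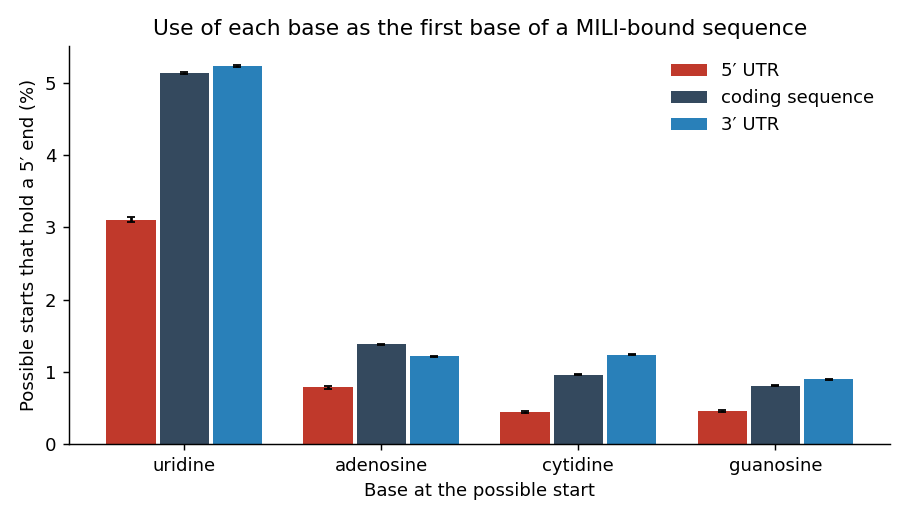
Share of possible starts (y axis, percent) at each base (x axis) that hold a distinct 5′ end, by messenger region, with exact 95% intervals as error bars. Uridine of the 5′ UTR stands at 3.11%, above the other bases of the 5′ UTR (0.446% to 0.785%) and below uridine of the coding sequence (5.14%) and 3′ UTR (5.23%).

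Behind the first base, members were richer in adenosine than the 5′ UTRs they came from. Over positions 2 to 24, A made up 26.3% of bases, against 19.7% in possible starts of the same genes weighted alike, whereas G and C together made up 55.1% against 60.1% and U 18.6% against 20.3%. The excess of A was largest at position 5, where 33.6% of members carried A against a supply of 19.1%, and weighted factors were 1.50 at position 3, 1.47 at positions 4 and 6, and 1.71 at position 5. Position 2 was richest in G, at 40.3% against 31.1%. Just before the first base, G was scarce (17.6% against 31.4%) and C frequent (36.3% against 29.7%). CpG dinucleotides, common in the CpG islands where many mammalian promoters and 5′ UTRs lie, numbered 1.33 per 24 nt against 1.65. Much of the gap in CpG and in G and C went with the first base: among starts at U, CpG stood at 1.24 in members against 1.33, and G and C at 55.1% against 57.2%, while A stood at 25.9% against 20.002%.

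Single triplets anywhere in positions 2 to 24 behind a first U went with large differences in use. Only genes with a member in the region were counted here, so use stood above the 3.11% for uridines of all 5′ UTRs. Their possible starts at U were taken where the first 24 nt lay in the 5′ UTR. Those with GAA at any of these positions were used at 9.83%. Those without it were used at 4.37%, a factor of 2.25. AGA (2.17), GAC (2.10) and GGA (1.96) came next. GAA and AGA also led in the coding sequence (2.17 and 2.20) and stood among the first 4 in the 3′ UTR (1.90 and 2.11), so these triplets ranked high in every region, in a differing order. Upstream AUG triplets, which can divert scanning ribosomes, were present in 17.1% of member windows that ended before the start codon, against 13.4% of possible ones. Their factor in use, anywhere in positions 2 to 24 behind a first U, was 1.17 in the 5′ UTR, 1.22 in the coding sequence and 1.18 in the 3′ UTR.

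Adenosine at position 10 was above supply but did not stand out from its neighbours. It was carried by 26.5% (26.1–26.8%) of members against 19.1%, a weighted factor of 1.35, and positions 11, 12 and 13 had factors of 1.37, 1.36 and 1.35. Members that began with U had A at position 10 in 26.2% and those that did not in 26.97%, with factors of 1.30 and 1.40. The coding sequence had 1.18 and 1.23 and the 3′ UTR 1.16 and 1.24 for these classes. Over autosomes the factor in the 5′ UTR averaged 1.39 (SD 0.0775, n = 19), above the coding sequence (1.24) on 18 of 19 and above the 3′ UTR (1.14) on 19 of 19. A was above supply at each of positions 2 to 27, by weighted factors of 1.03 to 1.71, so an excess of A was not specific to position 10.

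Density was highest in the last 50 nt before the start codon. Over all 5′ UTRs, per 100 possible starts it was 0.771 at 500 to 451 nt upstream, 1.01 at 200 to 151 nt, 1.13 at 100 to 51 nt and 1.64 (1.61–1.66) in the last 50 nt, close to the 1.75 of the first 50 nt of the coding sequence. The use of uridine followed the same course, from 2.16% to 3.30% and then 4.75%, with 4.75% again just downstream. Counted from the other side in genes with 5′ UTRs of 300 nt or more, density was 0.646 in the first 25 nt of the transcript and 1.22 at 275 to 299 nt. Of the members, 268 (0.361%) began at the first annotated base. Where the 5′ UTR was split over exons, the start-codon exon had 1.53 ends per 100 possible starts and the exons before it 0.866. 5′ UTRs in a single exon had 1.12. In these, density did not climb over the farther bins: it was 1.10 at 300 to 251 nt upstream, 0.989 at 200 to 151 nt and 0.9998 at 100 to 51 nt, and 1.47 in the last 50 nt. Their use of uridine went from 3.53% through 3.15% and 3.10% to 4.46% over the same bins. The step into the last 50 nt was thus seen in both sets, and the slow rise before it was not seen in 5′ UTRs of a single exon. How the annotated starts relate to the transcripts made in these testes was not tested.

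**Figure D2:**
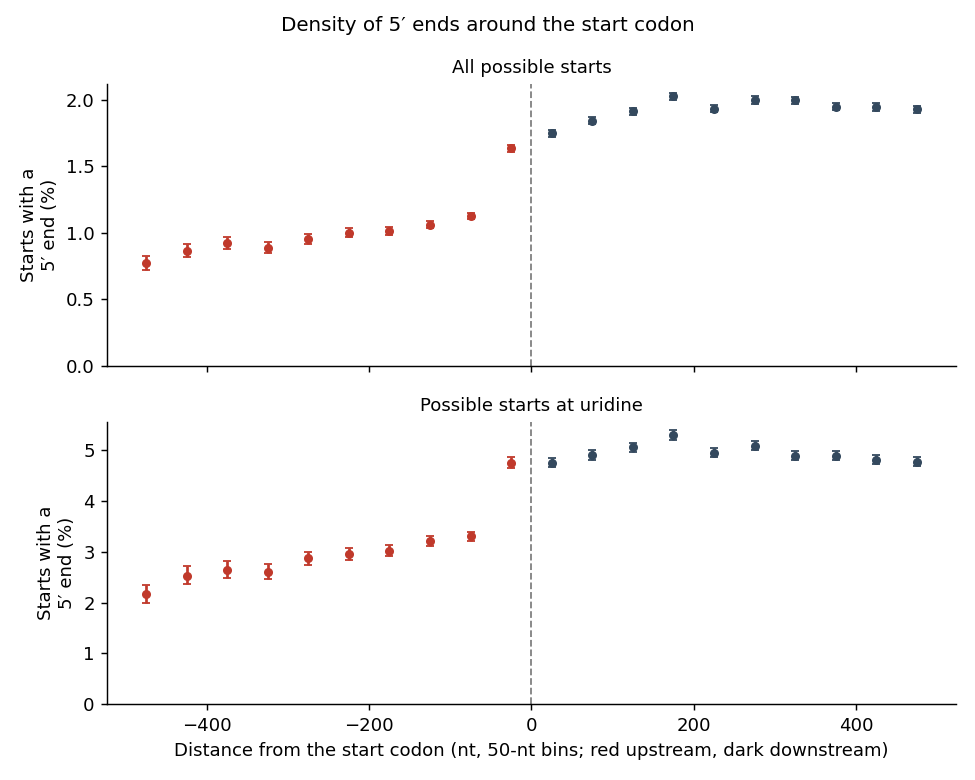
Share of possible starts that hold a 5′ end (y axes, percent) in 50-nt bins by distance from the start codon (x axis, nt), for all possible starts (top) and those at uridine (bottom), with exact 95% intervals. Values upstream (red) run from 0.771% in the farthest bin to 1.13% at 100 to 51 nt, and the last bin before the start codon stands at 1.64%, near the coding sequence (dark).

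At single-base resolution, the rise near the start codon ran over several bases. In the 20396 transcripts with a 5′ UTR and AUG at the annotated start, uridines 22 to 50 nt upstream were used at 3.80% (3.68–3.93%). Where the first 24 nt held the whole start codon, uridines were used at 6.12% (5.94–6.30%), a factor of 1.61. Other bases went from 0.646% to 1.13%, a factor of 1.76. The start-codon classes were chosen after the data were seen, so these factors and intervals are descriptions. From 23 to 21 nt upstream, the use of uridine went from 4.30% (3.62–5.07%) through 5.15% (4.42–5.97%) to 6.04% (5.27–6.89%). Intervals of neighbouring positions overlap, so the edge of the rise cannot be placed to a single base. The use of uridine stayed between 5.43% and 7.05% from there to 5 nt upstream. Nearer the start codon, where uridines were fewer, it was uneven. It was 9.05% (7.93–10.3%) at 4 nt and 4.02% (2.99–5.28%) at 3 nt, then 4.79% at 2 nt and 6.33% at 1 nt. The U of the start codon itself, which lies in the coding sequence and is always followed by G, was used at 8.65% (8.25–9.06%), and uridines 3 to 30 nt after the first base of the start codon fell back to 4.54% (4.41–4.67%). Starts whose first 24 nt include the start codon were thus used more often than those farther upstream and those from 3 nt after its first base, but less often than the U of the start codon. The factor against 22 to 50 nt upstream was 1.56 without histone genes and 1.59 in 5′ UTRs of 200 nt or more. The start-codon windows had ends at uridine in 2538 genes, so the rise did not rest on a few genes. Whether the base composition around start codons contributes was not tested beyond the split by first base.

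**Figure D3:**
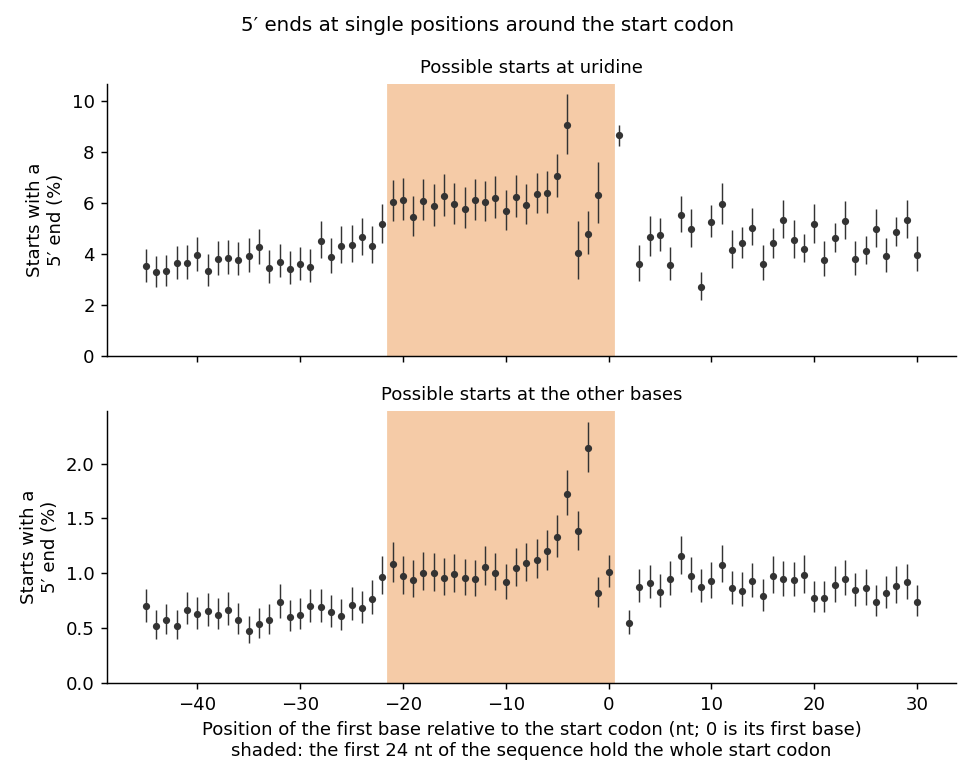
Share of possible starts that hold a 5′ end (y axes, percent) at each position from 45 nt before to 30 nt after the first base of the start codon (x axis, nt), at uridine (top) and at the other bases (bottom), with exact 95% intervals. In the shaded span the first 24 nt hold the whole start codon, and uridine there is used at 6.12% over all positions, against 3.80% at 22 to 50 nt upstream and 4.54% after it.

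Members were spread thinly over many genes. Of 20430 genes with a 5′ UTR, 8236 (40.3%) had at least 1 member, with a median of 3 ends among those, 1408 had 10 or more ends, 65 had 50 or more and 12 had 100 or more. The 10 fullest genes held 2.56% of ends and the 100 fullest 13.0%. Longer 5′ UTRs had a member more often, from 15.7% of genes with 1 to 49 nt to 58.6% with 400 to 799 nt, whereas density was highest in the shortest class (1.51 per 100) and lowest at 800 nt or more (0.818). In the shortest class every start lies near the start codon.

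Within genes rich in ends, the 5′ UTR was mostly the sparser region. Among 3196 genes with 50 or more ends and 100 or more possible starts in 5′ UTR and coding sequence, the 5′ UTR was denser in 500 (15.6%, 14.4–17.0%) and had 0 ends in 508. The median ratio of the densities was 0.355, with quartiles of 0.127 and 0.759. Coding sequences held 622029 ends and 5′ UTRs 50182, so the filter on ends leans toward genes with a dense coding sequence. These values therefore describe the chosen genes only. Across 13351 genes the densities of the 5′ UTR and the coding sequence rose together (Spearman rho 0.660), a description across genes, which share sequence composition and message level. Over 12340 genes rho was 0.566 between both UTRs and 0.816 between coding sequence and 3′ UTR. At least 6774 of the 13351 genes had 0 ends in the 5′ UTR, so many of its ranks are ties. The values of rho were not adjusted for this. Split by coding density, which fixes the coding side of the comparison, the 5′ UTR had 0.228 ends per 100 starts against 0.230 in the 6825 genes with under 1 coding end per 100. It had 1.05 against 1.47 in the next class, and 4.42 against 11.5 in the 823 genes with 8 or more.

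The 10 genes with the most ends had long 5′ UTRs or high density. Snx33, a sorting nexin of membrane traffic, was first with 152 ends and 275 sequences in a 5′ UTR of 1588 nt, between chr9:56774572-56776092 (mm9, minus strand), at 9.57 ends per 100 starts against 8.71 in its coding sequence. Prelid1, which moves phospholipid between the mitochondrial membranes, had 141 ends, and 90.5% of its messenger sequences lay in the 5′ UTR (chr13:55421872-55423555, plus). Its density was 8.34 against 2.36 in the coding sequence. Smcr8, of an autophagy regulator complex, had 140 ends in only 503 nt (27.8 per 100), beside 25.8 per 100 in its coding sequence. Thus Smcr8 was dense throughout, whereas Prelid1 was dense in its 5′ UTR.

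Trim71, a germ and stem cell RNA-binding protein, had 128 ends (10.2 per 100, against 9.32 in its coding sequence and 21.6 in its 3′ UTR), and the transcription factor gene Sox4 had 122 (17.6, against 14.6 and 4.94). Igip had 120, BC025920 121, and Ppp1r15b, a stress-response phosphatase subunit, and Twnk, the mitochondrial DNA helicase, 113 each. Of these, the coding sequence was denser in Igip (6.79 against 4.79) and Ppp1r15b (23.02 against 18.7). Ddi2, an aspartic protease gene, had 133 ends but is doubtful, since 0.450% of its members lay upstream of the start codon in every coding transcript of the gene, against 98.9% of all members.

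The 10 densest 5′ UTRs were between 102 and 572 nt long. Among genes with 100 or more possible starts and 20 or more ends, Uqcrh, a subunit of respiratory complex III, was first with 28.4 ends per 100 possible starts, followed by Smcr8 at 27.8 and the prefoldin gene Pfdn6 at 23.0. Asb9, of a ubiquitin ligase family, had 21.9 on the X chromosome, against 5.44 in its coding sequence. D1Pas1, a testis DEAD-box helicase, had 21.1, the RNA polymerase III factor gene Brf2 20.8, B230118H07Rik 20.4, the splicing gene Bud31 20, Twnk 19.8 and the superoxide dismutase gene Sod1 19.2. The 5′ UTR was the denser region in 8 of these 10, with Uqcrh and Sod1 the exceptions (35.5 and 27.98 in the coding sequence). These genes were chosen for their 5′ UTR density, so the direction is a description.

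The share of ends that began with U differed widely between genes, and so did the supply of U in their 5′ UTRs. Among the 65 genes with 50 or more ends it ran from 33.3% to 84.0% with a median of 56.0%, while U made up 9.12% to 32.2% of their possible starts with a median of 22.1%. In all 65 the ends exceeded the supply, by factors of 1.49 to 4.11. Across these genes, which differ in base content and number of ends, Spearman's rho of both shares was 0.591. Over 80% U was found in Vash1, which encodes a tubulin carboxypeptidase (84.0% of 50 ends, supply 20.9%), 1110008L16Rik (82.5%, supply 29.2%), Gm29666 (81.0%, supply 29.2%) and Igip (80.8%, supply 32.2%). Among the fullest with under 40% were Trim71 (36.7%, supply 13.2%), D1Pas1 (36.1%, supply 15.2%), Mepce, an RNA-capping enzyme gene (39.1%, supply 19.5%), Tsc22d4 (35.7%, supply 14.8%) and Pfdn6 (39.0%, supply 26.2%). Pfdn6 had the lowest factor, and Vash1 stood at 4.02.

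**Figure D4:**
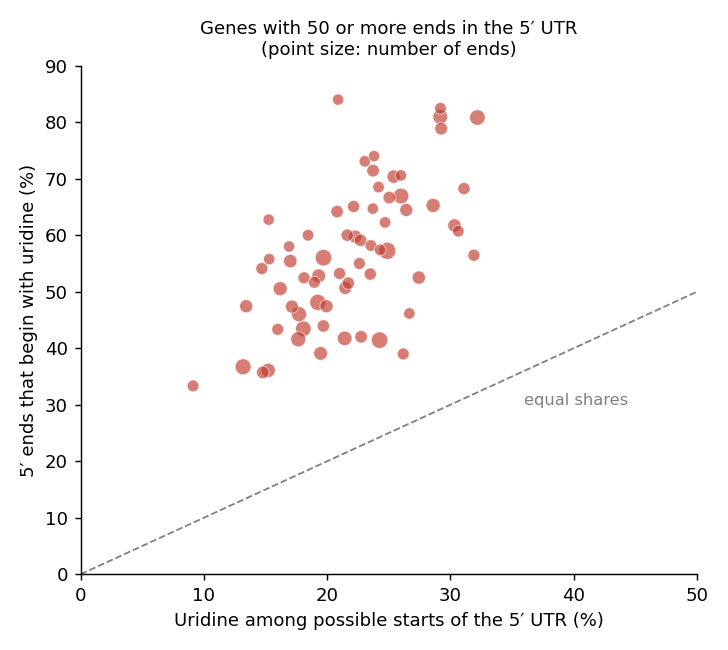
Share of distinct 5′ ends that begin with uridine (y axis, percent) against the share of uridine among possible starts (x axis, percent) in the 65 genes with 50 or more ends in the 5′ UTR, with point size for the number of ends. All points lie above the line of equal shares, and the ends range from 33.3% to 84.0% uridine.

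Germ cell genes had members in most lists, in small numbers. Of all genes with a 5′ UTR, 40.3% had a member. The median over all of them was 0 ends per 100 possible starts in the 5′ UTR and 0.780 in the coding sequence. Of 19 piRNA pathway genes with a 5′ UTR, 12 (63.2%) had 51 ends between them, with medians of 0.627 and 3.75. Exd1, a partner of TDRD12, had 14 ends, Henmt1 10 and Piwil2, which encodes MILI itself, 9. Tdrd9, the helicase gene deleted in the study, had 1 end, and Tdrd1, Mov10l1 and Piwil1 had none. Because the genotypes are pooled, this checks no label.

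Markers of undifferentiated spermatogonia had members in 8 of 10 genes (medians 1.93 and 3.38), led by the pluripotency factor gene Sall4 with 14 ends, Zbtb16 (PLZF) with 12 and the GDNF receptor gene Gfra1 with 10. All 6 markers of differentiating spermatogonia had members, and the median of these 6 genes was 6.69 in the 5′ UTR and 5.59 in the coding sequence, whereas their pooled densities had the opposite order, 4.67 and 5.04. The cyclin gene Ccnd2 had 13 ends, the retinoic acid target Stra8 9 and the stem cell factor receptor gene Kit 8, of which 12.5% began with U. Of 11 meiotic prophase genes 6 (54.5%) had members (medians 0.649 and 4.77). Among them were the cohesin gene Rec8 with 12 ends and the recombinase gene Dmc1 with 8. The share over all genes with a 5′ UTR was 40.3%, and lists this short cannot set their shares firmly apart from it. Hormad1, an axis protein gene, had 6 ends, but just 3 of its 11 sequences were listed where the gene is. The other 8 matched the spliced transcript exactly and were listed on another chromosome, against 99.5% of all members on the gene's chromosome.

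Genes of later germ cells and somatic testis cells had few members. Of 10 late spermatocyte and spermatid genes 2 had any, Crem with 4 ends and Tnp1 with 1, whereas none lay in the protamine genes Prm1 and Prm2. Of 8 Sertoli cell genes 2 had members, Sox9 with 3 ends and Inha with 1. Of 7 Leydig cell genes only Star had a member, at 1 end. The shares of genes with a member were 20%, 25% and 14.3%, against 40.3% of all genes with a 5′ UTR. Such short lists cannot set these shares firmly apart from it. The coding medians of these lists were also low, at 0.325, 0.255 and 0. In the pooled list, a gene's low message level and low processing cannot be told apart.

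Genes of the translation machinery showed contrasting patterns. Of 28 initiation and elongation factor genes 22 (78.6%, against 40.3% of all genes with a 5′ UTR) had 157 ends. The medians were 1.80 in the 5′ UTR and 5.59 in the coding sequence. Eef1b2 and Eif5 had 19 ends each and Eif3d 18. Of 78 ribosomal protein genes 57 (73.1%) had 480 ends, with medians of 2.17 in the 5′ UTR and 0.455 in the coding sequence. Pooled over the genes, the coding sequence remained the denser region, at 4.28 against 3.48. Rpl18 had 49 ends, Rps25 29 and Rpl27 27, and Rpl27 had 0 in its coding sequence. Ribosomal protein genes have many processed copies, and a 27-nt run was found in transcripts of a single gene at 20.6% of their coding starts against 95.1% of their 5′ UTR starts. The rule admits only sequences of a single gene, so it removes most coding sequences of these genes and few of their 5′ UTR sequences.

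Genes of the histone clusters, most of which have short 5′ UTRs and no introns, were the densest list. Of 56 with a 5′ UTR, 42 (75%, against 40.3% of all genes) had 425 ends. The medians were 14.2 in the 5′ UTR and 2.37 in the coding sequence (pooled 9.06 and 4.66), and the median 5′ UTR was 38 nt. The most ends were in the linker histone genes Hist1h1d (31), Hist1h1a (30) and Hist1h1t (30), and the linker genes Hist1h1c, Hist1h1b and Hist1h1e had 7, 6 and 4. In Hist1h1d the 5′ UTR is annotated at 1828 nt and had 1.70 ends per 100 possible starts, below the 11.9 of its coding sequence. Hist1h1a had 58.8 ends per 100 possible starts in a 5′ UTR of 51 nt, with 36.8 in its coding sequence, and Hist1h1t had 57.7 against 10. Here too the shares of starts found in a single gene differed, at 86.0% in the 5′ UTR and 30.6% in the coding sequence. Their ends began with U in 52.9% (48.1–57.8%), against a supply of 32.2%.

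Sequences antisense to the 5′ UTR were rarer than members but took a larger share than in other regions. There were 7287, or 8.93% (8.73–9.13%) of both strands together, against 4.19% in the coding sequence and 3.20% in the 3′ UTR. Part of this gap lies in the lower number of sense sequences: per kb, antisense ends stood at 1.21 in the 5′ UTR, 0.878 in the coding sequence and 0.918 in the 3′ UTR. This counts all nucleotides, of which 93.9%, 87.0% and 97.9% were possible starts in these regions. On autosomes the antisense share averaged 8.82% (SD 2.05, n = 19) and was above both regions on 19 of 19. U was the first base of 77.0% of them. The genes with the most, named after their values were seen, were Odf3 with 57 beside 0 members, Asb6 with 56 beside 4, Ncapd3 with 50 beside 5 and Nr2e1 with 48 beside 6. Transcripts that run toward a gene from its promoter region were not annotated here, and their part in this was not tested.

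Partners that overlap by 10 nt, the geometry of slicing, were present but scarce. Of the ends, 415 (0.827%, 0.750–0.910%) had an opposite-strand end at this overlap, against a mean of 307 for the other overlaps from 1 to 20 nt (range 218 to 399), a factor of 1.35. The next highest count, 399, was at 5 nt. The factor was 1.33 in the coding sequence and 1.39 in the 3′ UTR, where 0.280% and 0.353% of ends had such a partner, so that the excess over other overlaps was alike and the level of all overlaps was higher in the 5′ UTR. These 415 ends lay in 296 genes. They began with U in 68.2%, against 60.3% of all distinct ends of the 5′ UTR. Position 10 was A in 64.8% (60.01–69.4%) of them. At this overlap position 10 pairs with the partner's first base, so 64.8% is also the share of partners that began with U. Of all sequences antisense to the 5′ UTR, 77.0% began with U. That share is over sequences and the 64.8% is over distinct ends, so the shares are not in like units. At other overlaps position 10 does not face the partner's first base. A there stood at 17.7% to 33.7%, a difference that the geometry fixes and that is no separate mark of slicing.

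**Figure D5:**
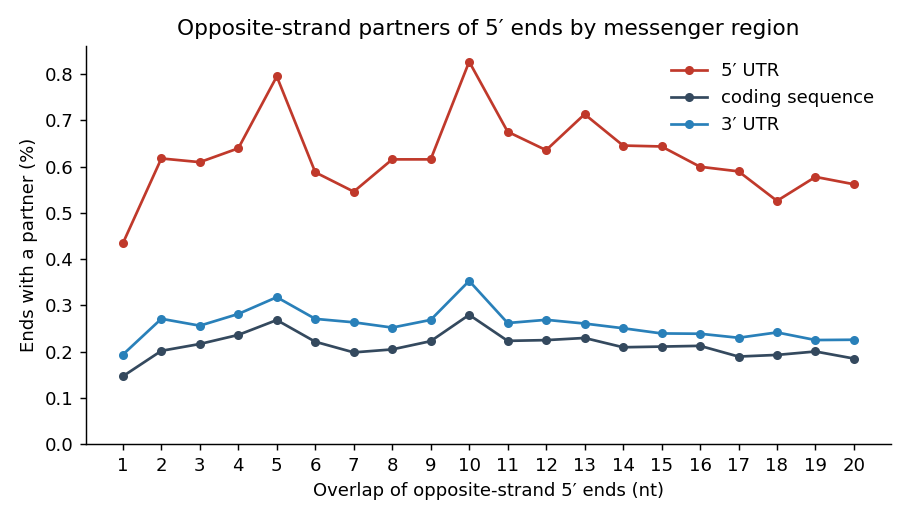
Share of distinct 5′ ends (y axis, percent) with an opposite-strand 5′ end at each overlap from 1 to 20 nt (x axis, nt), by messenger region. At 10 nt the 5′ UTR stands at 0.827%, the coding sequence at 0.280% and the 3′ UTR at 0.353%, each the highest of its line, and the whole 5′ UTR line lies above the others.

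The genes with the most such ends, also named after their values were seen, were Smad3, a signal transducer of TGF-beta (11 of its 24 ends), Trim71 (10 of 128), D1Pas1 (9 of 97), Sox4 (9 of 122) and the zinc finger gene Zfp668 (8 of 46). A pair from each of the first genes is given, with the 10 overlapping bases of each strand in capitals. The Smad3 sequences lie at chr9:63605570-63605597 (minus strand, sense) and chr9:63605588-63605614 (plus), and the Trim71 sequences at chr9:114473135-114473164 (minus, sense) and chr9:114473155-114473182 (plus).
Smad3 sense: AGAGTTAAAAgcgaagttcgggcgaggc
Smad3 antisense: TTTTAACTCTggagaacttgcccgggc
Trim71 sense: TCTGATTCGAgcaagcccgggagggagact
Trim71 antisense: TCGAATCAGAggagtacgcgagggaccc

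Marks of phased cutting, in which the 3′ end of a piRNA adjoins the first U of the next, were near background in the 5′ UTR. The base after the 3′ end was U for 20.3% of members against 19.7%, a weighted factor of 1.02, with 1.05 in the coding sequence and 0.986 in the 3′ UTR. An end lay directly behind 3109 of 60774 distinct 3′ ends, against a mean of 2960 (range 2881 to 3065) at distances of 2 to 20 nt, a factor of 1.05. The base after the 3′ end was C less often than supplied (23.5% against 29.7%) and A more often (23.1% against 19.3%), and the last base was C in 33.5% against 29.8%.

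The share of members varied between chromosomes. Of the sequences placed on a transcript, members made up a mean of 3.73% (SD 0.651, n = 19 autosomes), the lowest being 2.91% (chromosome 8) and the highest 5.40% (chromosome 13). X-linked sequences had a share of 5.57% and a density of 0.768 per 100 possible starts, below all autosomes, whose lowest was 0.877 on chromosome 2. Its coding density was low as well, at 1.15.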

How the data were processed

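Per the labels, libraries of MILI-bound, gel-eluted RNA were made with an Illumina kit for small RNAs. The submitters' processing notes name mm9 as the build. For aligner and read filters, the sources used here give nothing. Per the file headers, the authors deposited 5 columns, namely strand, chromosome, both positions (1-based) and the sequence. Members and gene lists were chosen with earlier results of these data known.

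Each sequence was compared with 141767 GENCODE M21 transcripts by exact match of its whole length. That annotation is built on GRCm38; only sequences, exon lengths, coding limits and chromosome names were used, and no coordinate was converted. Each gene was represented by its transcript of longest coding sequence, ties going to the longest transcript. Tested on simulated data, the matching recovered all 500 planted sequences and matched 0 random ones. A possible start was a base with 27 nt left in its exon. Base content was taken over possible starts of genes with a member, and a weighted form gave each gene the weight of its members. The ratio for opposite-strand partners sets the number of ends paired at 10 nt against the average number at every other overlap between 1 and 20 nt.

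No test could be run, since the list has neither counts nor libraries. The 95% intervals of shares (Clopper-Pearson, exact) cover counting error only, and SDs are over 19 autosomes, which are not replicates. Abundant and rare sequences count alike. Genes were named as follows: the 10 with the most ends; the 10 densest with 100 or more possible starts and 20 or more ends; with 50 or more ends, the 5 fullest with over 80% and the 5 with under 40% U; up to 3 of each list with the most ends; and the genes of the 5 fullest ends. Other genes were chosen after their values were seen. A sequence that the choice of examples would include is not reported here. Alternatives covered length, counting unit, transcript choice, leading genes, recurring ends and base supply. The tools were numba 0.67.0, matplotlib 3.10.9, scipy 1.17.1, pandas 2.3.3 and numpy 2.4.6 under Python 3.11.15.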

Additional observations from a re-analysis of the deposited data

How the results depend on the processing

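No paired analysis was possible because the pooled list has no library column, and for the same reason no library could be left out. Of 51 alternative values, 33 stayed within the counting interval of the reported value and 18 moved outside it. The U and A factors stayed above supply, and the partner count stayed above that of the other overlaps. Apart from the comparison within genes, only 5′ UTR values were recomputed, so the order of the regions was not tested under these alternatives. Counting distinct ends in place of sequences gave a 5′ UTR share of 3.85%, a U factor of 3.04 and an A factor at position 10 of 1.36. Counting sequences in place of ends gave a density of 1.61 per 100 starts. With the longest transcript for each gene, the share was 3.67%, the U factor 3.31 and the density 1.07. Keeping only members upstream of the start codon in every coding transcript gave a share of 3.598%, and leaving out the 10 fullest genes gave 3.55% and a density of 1.06. With all nucleotides as supply, the U factor was 3.36 and the density 1.03, and with supply weighted by gene the U factor was 3.24. Of genes with 20 or more ends, 18.2% had the denser 5′ UTR, and 17.7% of the genes compared had it when all nucleotides were counted. The last 50 nt over the 50 nt before stood at 1.45, and at 1.38 in 5′ UTRs of 200 nt or more. Chosen after the data were seen, possible starts found in a single gene gave a density of 1.16. The start-codon comparison was also chosen then, and leaving out histone genes gave it a factor of 1.56. Depth is unknown, so a 5′ UTR with no member may be one too thinly sampled, and sequences with several genome matches may be missing.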
